A study of Mus musculus with 18 samples.

Results

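The beta-2 integrins are the adhesion receptors of white blood cells, and 7 genes of this system were followed through bone marrow and spleen. They are the common beta chain Itgb2, the alpha chains Itgam, Itgal and Itgax, the integrin activators Tln1 and Fermt3, and the actin-binding gene Cotl1. All 7 symbols were found in both of the authors' deposited results tables, among 14423 genes for bone marrow, 21830 for spleen and 13776 listed under 1 symbol in both. The genes were picked by symbol, but with the log2 fold changes and adjusted p-values of both tables already known. Their values and adjusted p-values are therefore given as a description of the tables, and no test of the group as such was made.

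RNA was measured by QuantSeq, which reads each transcript near its polyadenylated 3' end, so that a count does not scale with transcript length. The series holds 18 libraries of C57BL/6 mice with defects in the cytosolic DNA response. Bone marrow came from 4 Cgas-/- samples, which lack the DNA sensor cGAS, and from 4 dKO samples, which are Trex1-/-;Sting1gt/gt and so lack the exonuclease TREX1 and functional STING. Spleen came from dKO recipients that had been lethally irradiated and given Cgas-/- marrow (5 samples) or dKO marrow (5 samples) 12 weeks earlier. All spleens thus have a dKO host, whose non-haematopoietic and residual radioresistant cells carry the dKO alleles whichever marrow was given. The labels do not say that each library is from another mouse, so the standard errors measure the spread between samples, which may be technical. Fold changes are Cgas-/- over dKO, or Cgas-/- marrow over dKO marrow.

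Each beta-2 integrin is a pair of 1 alpha chain and the beta chain CD18, the product of Itgb2. Itgal (CD11a) gives LFA-1, which binds ICAM proteins on endothelium and on antigen-presenting cells. Itgam (CD11b) gives Mac-1, the complement receptor of neutrophils, monocytes and macrophages, and Itgax (CD11c) gives the receptor known from dendritic cells. On resting leukocytes these receptors are bent and bind weakly. Signals through Rap1 bring talin-1 (Tln1) and kindlin-3 (Fermt3) to the beta tail, which straightens the receptor and links it to actin. People who lack ITGB2 or FERMT3 have leukocyte adhesion deficiency, in which neutrophils fail to leave the blood.

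The part of Itgb2 that meets talin and kindlin is short, and its coding sequence is shown because it joins 3 of the genes followed here. It is the last 50 codons before the stop codon, read from the GENCODE M21 transcript (GRCm38, plus strand, in 2 exons at chr10:77564715-77564804 and chr10:77565178-77565237). Capitals mark the codons of its 2 NPxF motifs, of which talin is known to bind the first and kindlin the second.
Itgb2 tail: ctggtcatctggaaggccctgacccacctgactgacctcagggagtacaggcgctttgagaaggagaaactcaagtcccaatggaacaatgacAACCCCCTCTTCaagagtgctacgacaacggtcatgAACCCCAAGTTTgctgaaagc

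The 3 alpha chains carry a conserved motif next to the membrane that holds the beta tail in the resting state. Its codons are in capitals below, with 4 codons on each side, to show how alike these paralogs are where they meet Itgb2. The stretches lie on the plus strand of chromosome 7, split over 2 exons each: chr7:127330231-127330239 and chr7:127333452-127333481 for Itgal, chr7:128116838-128116846 and chr7:128117306-128117335 for Itgam, and chr7:128149206-128149214 and chr7:128150099-128150128 for Itgax.
Itgal: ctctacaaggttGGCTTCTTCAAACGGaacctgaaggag
Itgam: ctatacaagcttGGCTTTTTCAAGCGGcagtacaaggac
Itgax: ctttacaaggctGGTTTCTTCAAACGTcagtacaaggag
Over these 39 bases Itgam shared 31 with Itgax and 29 with Itgal, and Itgax shared 30 with Itgal. Farther along, the transcripts part. Of the windows of 50 bases in the last 500 bases of the annotated coding transcripts, where QuantSeq tags fall, none of Itgal or Itgax matched a transcript of another gene, and the same held for Itgb2, Tln1 and Cotl1. Of the Itgam windows, 226 of 1147 (19.7%) also occurred in Gm49368, an annotated gene on the same strand at chr7:128062683-128128160 that covers most of Itgam, so their reads may be split. The authors' deposited tables list Gm49368 separately, with a mean normalized count of 225 in bone marrow and 7.79 in spleen. For Fermt3, 40 of 781 windows (5.12%) were shared with Trpt1 on the opposite strand, and the sources used here do not give the strand that was counted.

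The genes lie apart from Trex1 and Cgas. On GRCm38, Itgal (127296260 to 127335138), Itgam (128062640 to 128118491) and Itgax (128129547 to 128150657) are on chromosome 7, and Itgb2 is on chromosome 10 at 77530252 to 77565708. Tln1 is on chromosome 4 (43531519 to 43562691), Fermt3 on chromosome 19 (6998958 to 7019469) and Cotl1 on chromosome 8 (119809222 to 119840544). Trex1 and Cgas are both on chromosome 9, which holds none of the 7. The place of Sting1, which is also altered in dKO samples, was not looked up.

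The labels were checked on the targeted genes. The log2 fold change of Trex1 was 1.45 ± 0.178 (standard error, as throughout) in bone marrow and 2.71 ± 0.199 in spleen, and that of Cgas was -1.13 ± 0.155 in bone marrow and -0.92 ± 0.217 in spleen, by the authors' deposited tables, where all 4 passed a adjusted p of 0.05. The markers of the labelled tissues were present, with mean normalized counts of 406050 for the neutrophil gene S100a8 in bone marrow and of 3742 for the B cell gene Cd79b in spleen by the authors' deposited tables. The tables give no value per library, so depth per library is unknown. Group means were computed from the deposited overall mean normalized count and fold change with equal group sizes, carry no error of their own, and are called implied means. The tables were normalized separately, and levels are not compared between tissues as measurements.

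In bone marrow the common beta chain was lower in Cgas-/- cells. The implied mean normalized count of Itgb2 was 2701 in Cgas-/- marrow and 3360 in dKO marrow, which is 19.6% lower. In the authors' deposited table its log2 fold change was -0.32 ± 0.0802, with a 95% interval of -0.47 to -0.16 and a adjusted p of 0.0237. By unadjusted p, Itgb2 held rank 51 among the 14423 genes. Fewer cells that express a gene and less RNA per cell cannot be told apart in such bulk RNA.

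The alpha chains differed in their values. Itgal had implied means of 1186 in Cgas-/- marrow and 1427 in dKO marrow and a log2 fold change of -0.27 ± 0.0794, close to that of Itgb2, but did not pass by the authors' deposited table (adjusted p = 0.0958, rank 114). Itgam had implied means of 2916 in Cgas-/- marrow and 3134 in dKO marrow, with a log2 fold change of -0.10 ± 0.0822 (adjusted p = 0.833) by the authors' deposited table. Its interval, -0.27 to 0.06, covers 0 and overlaps those of Itgal and Itgb2. Itgax was scarce, with implied means of 143 in Cgas-/- marrow and 133 in dKO marrow. Its log2 fold change of 0.10 ± 0.157 by the authors' deposited table has an interval from -0.21 to 0.41 (adjusted p = 0.947). Differences between chains within the same libraries were not tested, because the tables hold no covariance between genes.

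The 2 activators did not pass. Tln1, which joins the beta tail to actin, had implied means of 4673 in Cgas-/- marrow and 4811 in dKO marrow and a log2 fold change of -0.04 ± 0.0625 (adjusted p = 0.940) by the authors' deposited table. Fermt3, the kindlin of blood cells, had implied means of 2260 in Cgas-/- marrow and 2103 in dKO marrow and a log2 fold change of 0.10 ± 0.0910 (adjusted p = 0.864) by the authors' deposited table. The interval of Tln1, -0.16 to 0.08, only touches that of Itgb2 near its upper end, and that of Fermt3, -0.07 to 0.28, lies above it. Neither activator therefore had a decrease of the size fitted for Itgb2 within its interval.

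Cotl1 was also lower in Cgas-/- marrow. It encodes coactosin-like protein, which binds actin filaments and 5-lipoxygenase. Its implied means were 2669 in Cgas-/- marrow and 3272 in dKO marrow, 18.4% lower, and the authors' deposited table lists a log2 fold change of -0.29 ± 0.0758 (95% interval -0.44 to -0.15, adjusted p = 0.0274, rank 56).

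Thus 2 of the 7 genes passed in bone marrow by the authors' deposited table, both lower, where 0.361% of all genes passed as lower and 0.534% in either direction. Below an unadjusted p of 0.05 it was 3 of 7, all lower, against 4.65% of all genes in that direction and 4.19% in the other. Well-counted genes passed more often: 1.23% of the 1384 genes with a mean of at least 1000 were called lower, and 6 of the 7 genes have such a mean. Since these results were known when the genes were chosen, the counts carry no weight beyond the values. The median log2 fold change of the 7 was -0.10, beside -0.0023 over all genes of the authors' deposited table.

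**Figure D1:**
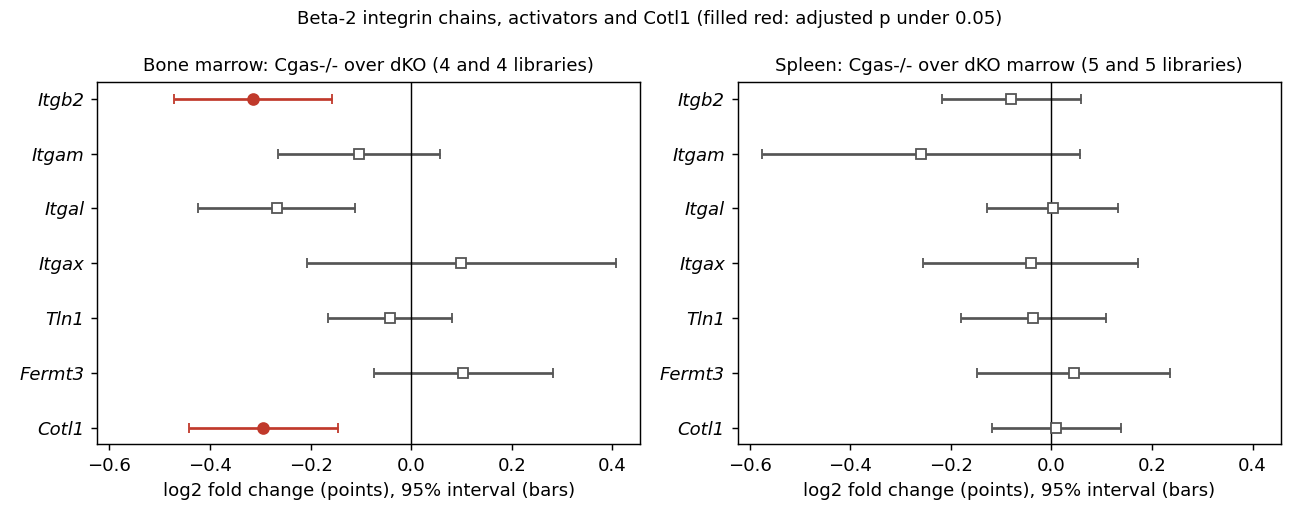
Log2 fold changes (points) with 95% intervals (bars) of the 7 genes in bone marrow (left) and spleen (right), Cgas-/- over dKO, from the authors' deposited tables. Filled red points passed a adjusted p of 0.05, which Itgb2 (-0.32) and Cotl1 (-0.29) did in bone marrow and no gene did in spleen.

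In spleen the intervals of all 7 log2 fold changes covered 0. With Cgas-/- marrow the implied mean of Itgb2 was 925, against 978 with dKO marrow, and its log2 fold change was -0.08 ± 0.0709 (95% interval -0.22 to 0.06) by the authors' deposited table. Cotl1 had implied means of 4870 with Cgas-/- marrow and 4836 with dKO marrow, and a log2 fold change of 0.01 ± 0.0656 (interval -0.12 to 0.14) by the authors' deposited table. The interval of Cotl1 lies above its whole bone marrow interval, whereas those of Itgb2 overlap.

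The alpha chains and activators did not pass in spleen either. Itgal had implied means of 1649 with Cgas-/- marrow and 1646 with dKO marrow, and a log2 fold change of 0.0024 ± 0.0667 (interval -0.13 to 0.13) by the authors' deposited table. For Itgam the implied means were 129.7 with Cgas-/- marrow and 155 with dKO marrow. Its log2 fold change of -0.26 ± 0.161 was the lowest of the 7 in spleen, with an interval of -0.57 to 0.06 by the authors' deposited table. Itgax (-0.04 ± 0.109), Tln1 (-0.04 ± 0.0734) and Fermt3 (0.04 ± 0.0981) had log2 fold changes within 1 standard error of 0 by the authors' deposited table. By DESeq2, 0 of the 7 passed, where 0.133% of all genes did in either direction, and 0 had an unadjusted p under 0.05, where 3.02% of all genes did, 1.85% lower and 1.17% higher. The spleen genes reach down to a mean normalized count of 0.24 and those of bone marrow to 6.46. Such shares therefore do not compare between the tissues. The median of the 7 was -0.04, beside -0.03 over all genes of the authors' deposited table, 0.0057 over those with a mean of at least 20 and 0.02 over those with a mean of at least 1000.

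**Figure D2:**
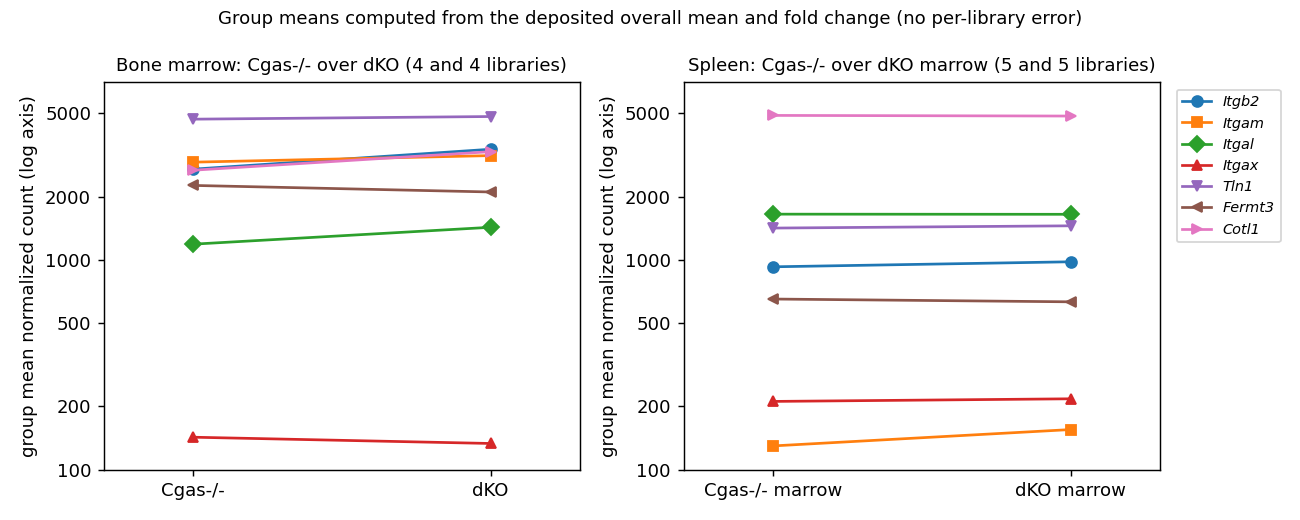
Implied mean normalized counts (log axis) of the 7 genes in Cgas-/- and dKO bone marrow (left) and in spleens with Cgas-/- or dKO marrow (right), computed from the deposited overall mean and fold change, without error. In bone marrow the steepest lines are those of Itgb2 (2701 in Cgas-/- and 3360 in dKO), Cotl1 and Itgal, and in spleen that of Itgam (129.7 with Cgas-/- marrow and 155 with dKO marrow).

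The precision differed little between the tissues for the abundant genes. At its standard error, Itgb2 would have needed a log2 fold change of at least 0.29 in size to pass in both the bone marrow and the spleen table, given the smallest Wald statistic that the authors' deposited tables call (3.65 and 4.10 in size). Cotl1 would have needed 0.28 in bone marrow and 0.27 in spleen. Itgam would have needed 0.30 in bone marrow and 0.66 in spleen, where its mean normalized count was 142 by the authors' deposited table. An estimate in spleen of the size that Itgb2 had in bone marrow would thus have passed for Itgb2, Cotl1, Itgal and Tln1. It would not have passed for Itgam, Itgax or Fermt3, by the authors' deposited table. A true change of that size can be estimated as smaller and then fail to pass, and power was not computed.

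The 2 comparisons share no library. They differ in tissue, irradiation, transplantation and the presence of dKO host cells together, and these cannot be told apart. Spleen minus bone marrow, the difference of the log2 fold changes was 0.30 ± 0.1003 for Cotl1 (-0.12 to 0.14 in spleen against -0.44 to -0.15 in bone marrow as intervals), 0.27 ± 0.104 for Itgal and 0.24 ± 0.107 for Itgb2. It was -0.16 ± 0.181 for Itgam, -0.14 ± 0.191 for Itgax, -0.06 ± 0.134 for Fermt3 and 0.01 ± 0.0964 for Tln1. The differences of Cotl1, Itgal and Itgb2 are more than 2 standard errors above 0, and those of the other 4 genes are within 1. These differences are a description and were not tested, because both tables were in view when the genes were chosen.

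**Figure D3:**
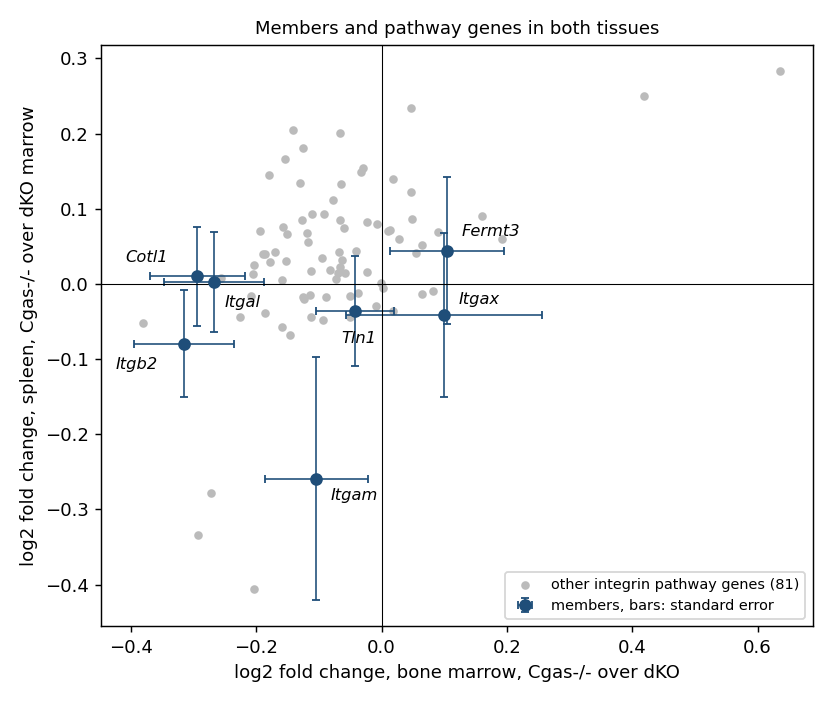
Log2 fold changes in bone marrow (x axis) and spleen (y axis), Cgas-/- over dKO, of the 7 genes (blue, bars of 1 standard error) and of 81 other integrin pathway genes with a mean of at least 100 in both tables (grey). Itgb2, Cotl1 and Itgal lie at the left near 0 on the spleen axis, Itgam lies low on the spleen axis, and Tln1, Itgax and Fermt3 lie near the centre.

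The rest of the integrin pathway was read from 7 lists with 119 genes in all, written from general knowledge with earlier results of these data known. In bone marrow 108 were listed, and 82 of them lay below 0 on the log2 scale (median -0.08). Of these, 1 gene passed as lower (0.361% of all genes did) and 0 passed as higher (0.173% of all genes did) under DESeq2 by the authors' deposited table, and below an unadjusted p of 0.05 there were 19 lower and 1 higher of the 108, where 4.65% of all genes were lower and 4.19% higher. Below 0 were 50.5% of all genes in bone marrow, and among those with a mean of at least 1000 it was 58.5%. Genes with such a mean were also called lower more often, 1.23% against 0.361% of all genes. Their share below an unadjusted p of 0.05 is not given here, and this limit holds for the lists below too. In spleen 118 of the 119 were listed, 49 below and 69 above 0 (median 0.02), and 0 passed under DESeq2, with 3 lower and 3 higher below an unadjusted p of 0.05, where 1.85% of all genes were lower and 1.17% higher. Of all spleen genes 55.0% were below 0 (median -0.03), and of those with a mean of at least 1000 it was 38.4% (median 0.02).

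Genes of the adhesion complex and of outside-in signalling, which carry the message of a bound integrin into the cell, included the 1 call. Fcer1g, an ITAM adaptor that beta-2 integrins and Fc receptors both use, fell by 0.31 ± 0.0759 on the log2 scale in Cgas-/- marrow by the authors' deposited table (adjusted p = 0.0137). Its partner adaptor Tyrobp had -0.23 ± 0.0773 without passing (adjusted p = 0.208) by the authors' deposited table. Of the list's 21 measured genes, 20 were below 0, with a median log2 fold change of -0.15, and 6 had an unadjusted p under 0.05, all lower, where 4.65% of all genes were. In spleen 13 of 22 were below 0 with a median of -0.03, and 0 passed or had an unadjusted p under 0.05. Lcp2 (0.15 ± 0.0928) and Ilk (0.56 ± 0.356) had the smallest p-values there by the authors' deposited table.

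Actin and actin-binding genes, beside which Cotl1 works, had 29 of 34 members below 0 in bone marrow, with a median of -0.10. None passed under DESeq2. Below an unadjusted p of 0.05, 7 were lower and 0 higher, where 4.65% of all genes were lower and 4.19% higher. Below 0 were 50.5% of all bone marrow genes and 58.5% of those with a mean of at least 1000. Actg1, which encodes cytoplasmic gamma-actin, came closest at -0.27 ± 0.0755 (adjusted p = 0.0548) by the authors' deposited table, followed by Was, the regulator of branched actin in blood cells, at -0.29 ± 0.0904 (adjusted p = 0.123). In spleen 0 passed under DESeq2. Below an unadjusted p of 0.05, 3 were higher and 1 lower there, where 1.17% of all genes were higher and 1.85% lower. Of the 34, 28 were above 0 in spleen, with a median of 0.07. Well-counted genes leaned the same way: 61.6% of spleen genes with a mean of at least 1000 were above 0, with a median of 0.02. The Arp2/3 complex genes Actr3 (0.17 ± 0.0692) and Arpc3 (0.23 ± 0.113) had the smallest p-values of the list in spleen by the authors' deposited table. Actin genes have near-identical copies and pseudogenes, so their single values are uncertain.

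The inside-out activators next to Tln1 and Fermt3 had a median of -0.0087 in bone marrow, with 9 of 15 below 0. Cyth1, which encodes the beta-2 tail-binding protein cytohesin-1, had a log2 fold change of 0.64 ± 0.189 (adjusted p = 0.0960) by the authors' deposited table, opposite in sign to Itgb2, and Skap2, an adaptor of integrin activation, had -0.17 ± 0.0746 (adjusted p = 0.433). In spleen Cyth1 had 0.28 ± 0.165 and Rassf5, a Rap1 effector that binds LFA-1, 0.09 ± 0.0775 by the authors' deposited table. None of the list passed in either tissue. Below an unadjusted p of 0.05 there were 2 lower and 1 higher of 15 in bone marrow and 0 in spleen. At that threshold 4.65% of all bone marrow genes were lower and 4.19% higher, and 3.02% of all spleen genes passed in either direction.

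Integrin inhibitors had 8 of 9 members below 0 in bone marrow (median -0.20) and 5 of 9 in spleen (median -0.0095), with no call under DESeq2. Among all genes, 50.5% in bone marrow and 55.0% in spleen were below 0. Over the inhibitors with a mean of at least 20, the bone marrow median was -0.14. Below an unadjusted p of 0.05 there were 0 in bone marrow and 1 in spleen, Rap1gap2, which switches Rap1 off, at -0.28 ± 0.137 by the authors' deposited table. At that threshold 4.65% of all bone marrow genes and 1.85% of all spleen genes were lower. Dok2 (-0.38 ± 0.196) and Itgb1bp1 (-0.26 ± 0.142) had the smallest p-values of the list in bone marrow and Dab2 (-0.91 ± 0.474) the next in spleen by the authors' deposited tables.

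Among ligands and the remaining alpha chain Itgad, 5 of 10 measured genes were below 0 in bone marrow (median -0.01) and 9 of 15 in spleen (median -0.04). The complement gene C3, whose cleaved product iC3b is bound by Mac-1, had -0.20 ± 0.0765 in bone marrow (adjusted p = 0.287) and -0.41 ± 0.214 in spleen by the authors' deposited tables. Icam4 in bone marrow (0.81 ± 0.435) and the fibrinogen chain Fgg in spleen (-0.997 ± 0.552) were next, both at mean normalized counts under 30 by the authors' deposited tables. None passed under DESeq2, and below an unadjusted p of 0.05 there was 1 in bone marrow, C3, and 0 in spleen. At that threshold 4.65% of all bone marrow genes were lower, and 3.02% of all spleen genes passed in either direction.

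Other leukocyte integrins and selectins had 9 of 16 below 0 in bone marrow, with a median of -0.06 and no call. Itgb2l, a neutrophil gene of the mouse related to Itgb2, had -0.32 ± 0.102 in bone marrow (adjusted p = 0.149) and -0.91 ± 0.460 in spleen by the authors' deposited tables. Selplg, the selectin ligand of leukocytes, had -0.19 ± 0.0739 in bone marrow, and Itgae, the alpha chain of epithelial-homing T cells, 0.40 ± 0.264 in spleen by the authors' deposited tables. Below an unadjusted p of 0.05 there were 2 lower in bone marrow and 1 lower in spleen. Of all genes, 4.65% in bone marrow and 1.85% in spleen were lower at that threshold. In spleen 10 of 18 were below 0, with a median of -0.0098 and no call under DESeq2.

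The 5-lipoxygenase genes stand beside Cotl1 because its protein binds that enzyme. Alox5, the enzyme itself, had -0.27 ± 0.105 in bone marrow (adjusted p = 0.316), and its activating protein gene Alox5ap -0.15 ± 0.0856, by the authors' deposited table. In spleen Alox5 had -0.39 ± 0.262 and Lta4h, which makes leukotriene B4, 0.09 ± 0.0873 by the authors' deposited table. None of the 3 genes measured in bone marrow or the 4 in spleen passed under DESeq2. Alox5 in bone marrow was the 1 with an unadjusted p under 0.05, where 4.65% of all bone marrow genes were lower.

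**Figure D4:**
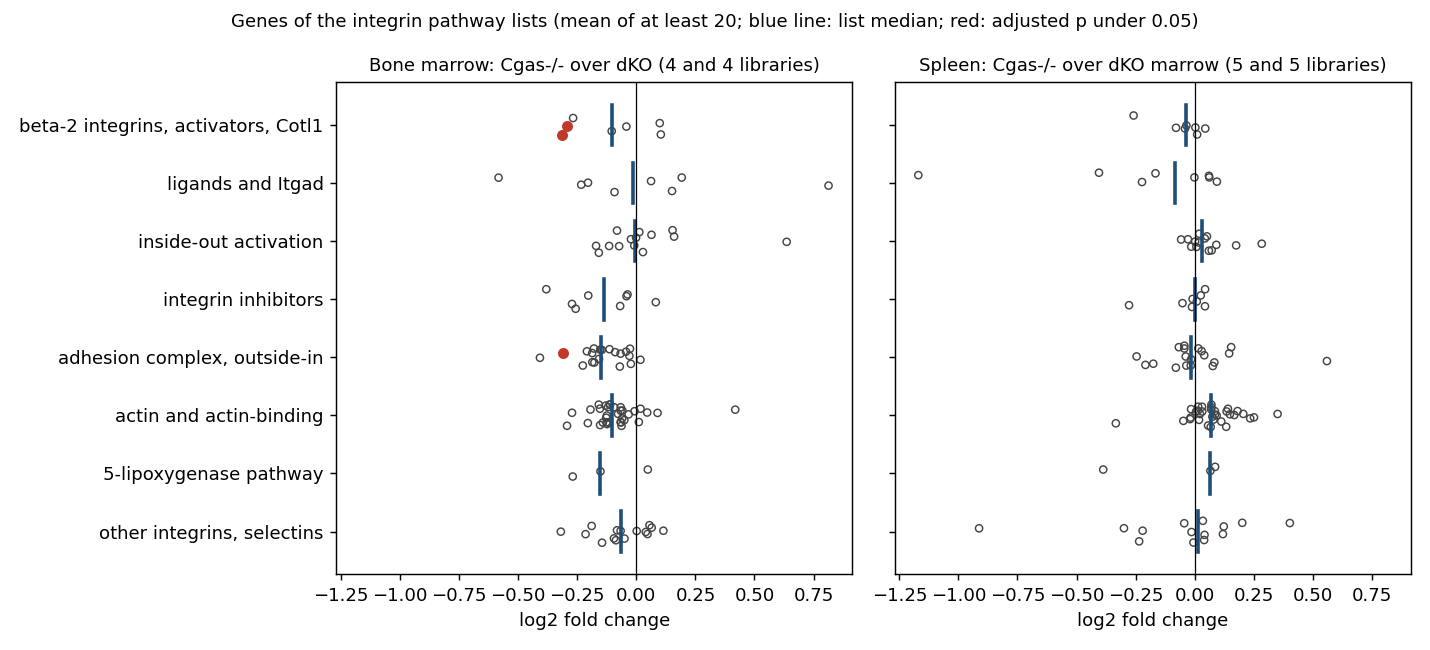
Log2 fold changes, Cgas-/- over dKO, of the genes of each integrin pathway list with a mean of at least 20 (points) in bone marrow (left) and spleen (right), with the list median (blue line). Medians in the text are over all measured genes of a list unless a minimum mean is named. Red points passed a adjusted p of 0.05: Itgb2, Cotl1 and Fcer1g (-0.31), all in bone marrow.

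Cell type markers moved in the same bone marrow libraries. Monocyte markers had 7 of 10 below 0, with a median log2 fold change of -0.32, and implied means that summed to 19895 in Cgas-/- marrow and 24326 in dKO marrow. Ly6c2 (-0.33 ± 0.0794, adjusted p = 0.0116) and the receptor gene Csf1r (-0.37 ± 0.0988, adjusted p = 0.0356) passed by the authors' deposited table, with values close to those of Itgb2 and Cotl1. Neutrophil markers had 13 of 14 below 0, with a median of -0.15 and no call under DESeq2. Below an unadjusted p of 0.05, 2 of them were lower, where 4.65% of all genes were. Of the 2, Ly6g (-0.29 ± 0.105) had the smallest p by the authors' deposited table. Eosinophil and basophil markers had 7 of 10 below 0 (median -0.28), with Ear1 (-1.05 ± 0.240) and Ear6 (-0.98 ± 0.234) past a adjusted p of 0.05 by the authors' deposited table, though these are close paralogs. For comparison, 50.5% of all bone marrow genes were below 0 and 0.361% passed as lower. Whether these shifts had a part in the lower Itgb2 and Cotl1 was not tested.

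Markers of erythroid, dendritic and B cells leaned the other way in the same libraries. All 11 measured erythroid markers were above 0 in Cgas-/- marrow, where 49.5% of all genes were, with a median log2 fold change of 0.64. Of the 11, 8 had an unadjusted p under 0.05, where 4.19% of all genes were higher at that threshold. The implied means of the 11 markers summed to 65836 in Cgas-/- marrow and 36313 in dKO marrow. Most of each sum came from the globin genes, which include close paralogs and are also among the 8. Hbb-bt (0.84 ± 0.223, adjusted p = 0.0370) passed by the authors' deposited table. Dendritic cell markers, which mark the main Itgax-bearing cells, had 9 of 10 above 0 (median 0.19), with Flt3, also a progenitor gene, past the threshold at 0.72 ± 0.153 (adjusted p = 0.00177) by the authors' deposited table. B cell markers had 8 of 10 above 0 (median 0.06) with Dntt called at 0.64 ± 0.166 (adjusted p = 0.0311) by the authors' deposited table. For comparison, 0.173% of all bone marrow genes passed as higher. Macrophage, T cell, NK cell and platelet markers had medians of 0.02, -0.01, 0.14 and -0.14 and no call under DESeq2. Over the macrophage markers with a mean of at least 20 the median was -0.04. Below an unadjusted p of 0.05 these 4 lists had 1 gene in all, Adgre1 (-0.46 ± 0.171 by the authors' deposited table), where 4.65% of all genes were lower.

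In spleen no cell type marker passed under DESeq2 by the authors' deposited table. The neutrophil markers had 11 of 14 below 0 with a median of -0.27, and implied means that summed to 26386 with Cgas-/- marrow and 31349 with dKO marrow. Monocyte markers had 4 of 10 below 0 (median 0.05) and macrophage markers 9 of 10 (median -0.20). Neutrophils and monocytes bear Itgam, which not all macrophages do, and Itgam was at -0.26 ± 0.161 with an interval that covers 0. T cell markers had 9 of 10 above 0 (median 0.10), NK cell markers 1 of 9 (median -0.17) and B cell markers 7 of 10 (median 0.02). Erythroid markers were all 11 below 0, with a median of -0.68 and implied means summing to 17641 with Cgas-/- marrow and 25921 with dKO marrow, the opposite sign to bone marrow. Below an unadjusted p of 0.05 the lower ones were Elane, Fcer2a, Klrb1c, Tfrc, Prg2 and Mcpt8, and the higher ones Cd3g, Trac and Nr4a1. Of all spleen genes, 1.85% were lower and 1.17% higher at that threshold. Medians were -0.11 for dendritic cell, 0.06 for platelet and -0.20 for eosinophil and basophil markers. The part of these shifts in the spleen values of the 7 genes was not tested.

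**Figure D5:**
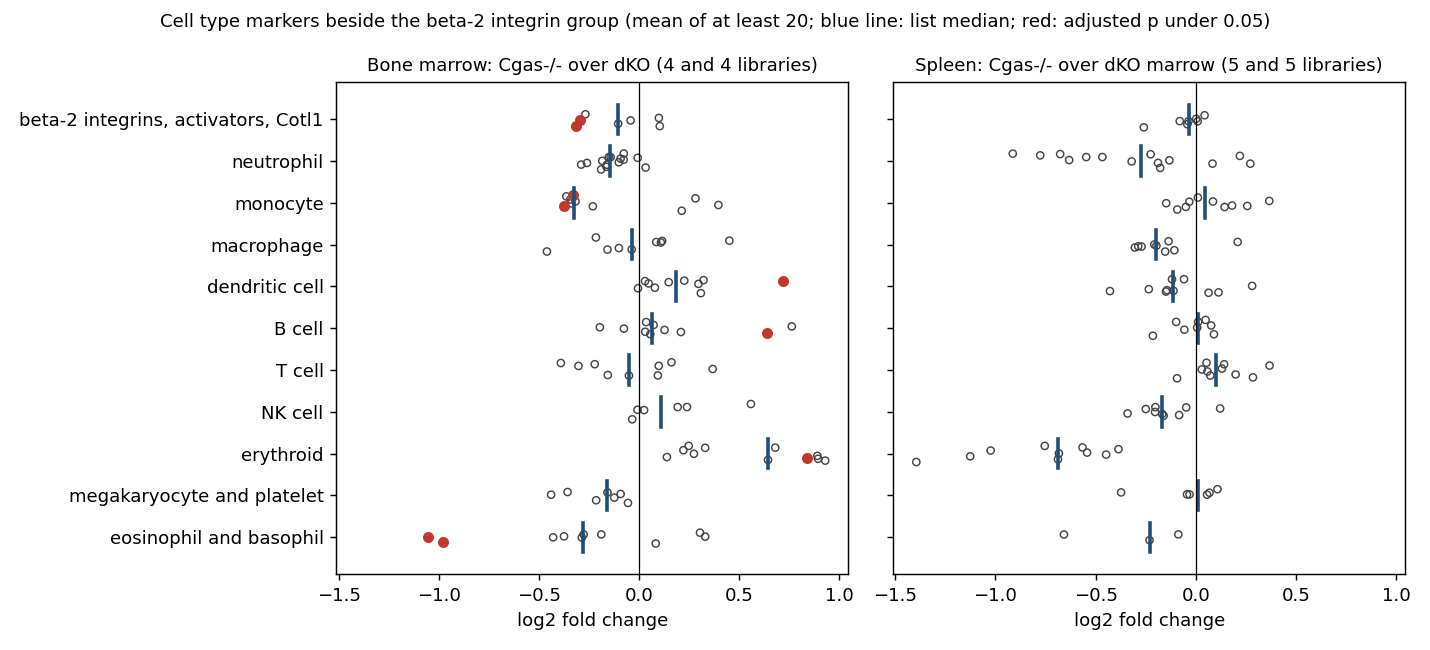
Log2 fold changes, Cgas-/- over dKO, of the 7 genes (top) and of cell type markers with a mean of at least 20 (points) in bone marrow (left) and spleen (right), with each list's median (blue line) and calls at a adjusted p of 0.05 in red. In bone marrow the monocyte median (-0.32) lies left of 0 and the erythroid median (0.64) right of it, and in spleen the erythroid median is below 0.

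The genes whose pair of log2 fold changes lay nearest to that of Itgb2 (-0.32 in bone marrow and -0.08 in spleen), among 6015 genes with a mean of at least 100 in both tables, were Fcer1g, Mgat5, Mon1b, Ints2 and Smpdl3a. Fcer1g was nearest, at -0.31 and -0.08 and a distance of 0.0034, and the distances of the other 4 ran from 0.0051 to 0.012. Only Fcer1g among these 5 passed in bone marrow under DESeq2 by the authors' deposited table. The likeness rests on 2 comparisons, and 152 genes lay within 0.1 of Itgb2, so it ranks genes only loosely.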

How the data were processed

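QuantSeq forward libraries of bone marrow and spleen were grouped by their titles. Per the submitters' processing notes, bcl2fastq 1.8.4, STAR 2.6.1, Partek and DESeq2 were used with mm10, and the sources used here do not give the counting tool, strand, annotation or gene filter. Each tissue has 1 table of the authors' comparison. In it, per the file headers, the deposited mean normalized count is a signal over all libraries compared, the log2 fold change with its error comes from the authors' DESeq2 fit, and the Wald score, ranking score, p-value and adjusted p-value are as deposited. Recomputing Wald scores, p-values and Benjamini-Hochberg values gave the deposited ones. Depth per library is not known from these tables, which allow no count test. Intervals are the log2 fold change ± 1.96 standard errors.

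The genes and lists were chosen with earlier results of these data known. The text names the 7 genes, Cgas and Trex1, from each pathway list the 2 genes with the smallest p per table and every call, from each cell type list the same with 1 gene, and the 5 genes nearest to Itgb2 by Euclidean distance. Some of these cell type genes are given by their list only. S100a8, Cd79b, Gm49368, Trpt1, Actb, Prg2 and Trac were named outside this rule, the last 3 after their values were seen. Adjustment, threshold and centring were varied, and the calculation was tested on simulated data. Places and coding stretches are from GENCODE M21 (GRCm38, the assembly of mm10), counted from 1. Python 3.11.15, pandas 2.3.3, numpy 2.4.6, scipy 1.17.1 and matplotlib 3.10.9 were used.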

Additional observations from a re-analysis of the deposited data

How the results depend on the processing

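Of 47 alternative values, 43 kept their direction and their side of the threshold or stayed within the limit set for counts. That limit was wide enough to count a rise from 2 to 3 called genes as unchanged. Many outcomes were fixed by the settings, since re-adjustment leaves each log2 fold change as it is and centring moved them little. The total therefore does not measure how robust the results are. With an adjusted p threshold of 0.1, 3 of the 7 genes were called in bone marrow, Itgal joining Itgb2 and Cotl1, and the pathway calls went to 3 (Fcer1g, Actg1 and Cyth1), against 1 at 0.05. With adjustment over the genes with a mean of at least 20, the pathway calls were 2, since fewer genes were tested and Actg1 passed at 0.0480. Centring on the median gene, which lay at -0.0029 in bone marrow and 0.0057 in spleen, put Itgal in spleen at -0.0032, against 0.0024 as deposited, and the spleen minus bone marrow difference of Tln1 at -0.0024, against 0.0062, all within 1 standard error of 0. It left the calls of Itgb2 (adjusted p = 0.0268) and Cotl1 (0.0315) in place. No paired analysis was possible because the tables hold results per comparison and no value per library, and for the same reason no replicate could be left out and no other scaling of counts was run. In spleen, the low counts of Itgam and Itgax limit what could be seen.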

Other observations

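Actg1, the gamma-actin gene of the actin list, had a mean normalized count of 14987 for bone marrow and 1.08 for spleen by the authors' deposited tables, whereas Actb had 154919 and 49395. The tables were normalized separately, and the cause of the low spleen value was not tested. It was noticed after its values were seen. Gm49368, which overlaps Itgam, was at -0.10 ± 0.166 (log2 fold change) in bone marrow and at 1.001 ± 0.509 in spleen by the authors' deposited tables. In spleen that is opposite in sign to Itgam (-0.26 ± 0.161), at an unadjusted DESeq2 p of 0.0493 and a mean normalized count of 7.79.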
